A study of Mus musculus with 12 samples.

Results

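The autophagy machinery genes are 35 genes that build the autophagosome and load it, taken as a list of gene symbols that names their known parts in the pathway. The rule used no value from these tables, but the list was drawn up with earlier results of these data known. All 35 were found among the 29957 genes of the microglia table and the 14663 genes of the hippocampus table, and all 35 passed the filter on low values in both. RNA was sequenced from C57BL/6 mice in 4 groups of 3 samples, namely hippocampal microglia (macrophages that reside in the brain) at 3 and at 24 months of age, and whole hippocampus at 6 and at 18 months. The labels name neither a genetic change nor a treatment in any group and do not tell how the microglia were separated from other cells. Nothing in them ties each sample to a mouse of its own, so every p-value here measures the spread between samples, which may be technical.

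Macroautophagy encloses cytoplasm in a double membrane and delivers it to the lysosome. A kinase complex around ULK1 starts the process, ATG9 vesicles and the lipid channel ATG2 supply membrane, and a lipid kinase built on BECN1 and PIK3C3 marks the site. Conjugation enzymes then attach the small ATG8 proteins (LC3 and GABARAP) to the growing membrane, and cargo receptors such as SQSTM1, also called p62, tie ubiquitinated material to them. In microglia the pathway takes part in clearing protein aggregates and damaged mitochondria, and several ATG8-conjugating proteins also serve the uptake of extracellular material.

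The 5 ATG8 genes show how close these paralogues are at the place where the pathway acts on them. ATG4 proteases cut behind 1 glycine near the end of each protein, and that glycine is then joined to a membrane lipid. The last 45 coding bases of each gene, without the stop codon, are printed 5′ to 3′ from the mouse transcripts of GENCODE M21 (build GRCm38), with that glycine codon in capitals.
Map1lc3a: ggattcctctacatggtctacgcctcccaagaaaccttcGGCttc
Map1lc3b: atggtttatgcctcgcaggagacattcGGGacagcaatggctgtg
Gabarap: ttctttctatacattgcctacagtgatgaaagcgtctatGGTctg
Gabarapl1: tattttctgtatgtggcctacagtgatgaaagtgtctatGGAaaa
Gabarapl2: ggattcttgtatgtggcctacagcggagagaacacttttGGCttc
Behind the glycine 1 codon follows in 4 of these genes and 5 codons in Map1lc3b. Over the whole coding sequence, Map1lc3a and Map1lc3b shared 74.7% of aligned bases and Gabarap and Gabarapl1 74.9%, while Map1lc3b and Gabarapl1 shared 50.6%. In GENCODE M21 the genes lie on chromosome 2 from 155276297 to 155278073 (Map1lc3a, plus strand), chromosome 8 from 121590361 to 121598760 (Map1lc3b, plus), chromosome 11 from 69991143 to 69994951 (Gabarap, plus), chromosome 6 from 129533160 to 129542346 (Gabarapl1, plus) and chromosome 8 from 111940703 to 111953612 (Gabarapl2, plus).

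Reads can be shared between genes, and this differed among the members. Of all stretches of 31 bases in a member's annotated transcripts, a median of 1.52% also occurred, on either strand, in transcripts of another gene, and the share was above 5% for 11 of 35 members. Some of these partners overlap the member on the opposite strand, and the labels name no step that keeps the strand. Others overlap it on the same strand or lie elsewhere in the genome. For Atg4a the share was 60.8%, with the pseudogene Atg4a-ps. For Becn1 it was 40.0%, mostly with Cntd1, for Atg9a 32.4%, for Gabarapl1 25.2%, for Uvrag 19.4% and for Atg4d 16.5%, with Kri1. Sqstm1 shared 16.4%, mostly with Mrnip, Gabarapl2 15.3%, Rb1cc1 12.8%, Atg2b 10.6% and Map1lc3b 8.64%. No stretch was shared for Gabarap or Map1lc3a. A shared stretch tells that reads could be divided either way, not how far a level is off. Cntd1 was at 2.54 CPM (counts scaled to a common library size, with TMM factors) or lower in every microglia library, where Becn1 was at 106 CPM or higher.

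The microglia libraries differed in their cell type markers and early response genes, in part along with age. They held 8072855 to 14226478 estimated counts. All 10 microglia markers were present in all 6 libraries, and their summed level was 67688 to 71765 CPM at 3 months and 48324, 48519 and 64679 CPM at 24 months, lower in every older library. A list of 20 immediate early and dissociation stress genes summed to 36708 and 37872 CPM in 24 month replicates 1 and 2, to 1896 CPM in replicate 3 and to 1501 to 2345 CPM at 3 months. Transcripts of neutrophils and monocytes (8 genes, all detected) summed to 2731 CPM in 24 month replicate 1 against 0.408 to 47.1 CPM elsewhere. Endothelial and mural transcripts (11 genes, 2 to 8 of them at 0 in a library) summed to 23.8 to 45.8 CPM at 3 months and to 339.9, 172 and 67.1 CPM at 24 months. Of these 11 genes, 3, 1 and 1 reached 1 CPM in the 3 month libraries and 6, 8 and 1 in the 24 month libraries. Acta2 alone was at 215 CPM in 24 month replicate 1, and at 0.759 CPM or lower elsewhere. Astrocyte transcripts (8 genes, 1 to 5 of them at 0) summed to 129, 235 and 267 CPM at 3 months and to 346, 459 and 333 CPM at 24 months. The sums of both lists, though not each gene in them, were higher in every older library. The part of any of these lists in the values of Atg5, Atg10, Atg4a, Gabarapl2 and Tax1bp1, the members whose ages did not overlap, was not tested. Of the 35 members, 12 had their highest and 10 their lowest CPM in 3 month replicate 1. Hippocampus columns summed to 974372 to 1002839 normalized counts, and their sequencing depth is unknown. Defining markers of neurons (10 genes), granule neurons (5), astrocytes (8) and oligodendrocytes (7) were above 0 in all 6 hippocampus libraries.

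No member passed the test for a difference with age in either tissue. In microglia, edgeR called 0 of 35 members at an adjusted p below 0.05, where 0.0% of the 10663 tested genes were called, and DESeq2 on the same counts also called 0 members. The smallest adjusted p of a member was 0.898, for Atg5. At an unadjusted p below 0.05 edgeR counted 0 of 35 members, against 5.53% of all tested genes. DESeq2 counted 2 of 35 at that threshold, against 7.71% of the 16947 genes to which it gave a p. In the hippocampus, limma called 0 of 35 members, where 0.0% of the 13491 tested genes were called, with a smallest adjusted p of 0.877, for Nbr1. At an unadjusted p below 0.05 limma counted 3 of 35 members there (Nbr1, Gabarapl1 and Atg4d, 8.57%), against 5.37% of all tested genes.

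The fitted changes scattered around no difference, and most were smaller than their errors. In microglia 16 members had a fitted log2 change above 0 and 19 below, with a median of -0.16 against 0.01 over all tested genes. For 24 of 35 members that change was smaller than its standard error (SE), as it was for 6970 of all 10663 tested genes. The median SE was 0.69, against 0.89 over all tested genes. In the hippocampus 20 members lay above 0 and 15 below, with a median log2 change of 0.05 against -0.04 over all genes. Their median SE was 0.36, against 0.57 over all tested genes. The error followed the level. In microglia the median SE was 0.31 for the 6 members with a mean of at least 100 CPM and 0.71 for the other 29. For most of the machinery a moderate change could thus have been missed in 3 against 3 libraries.

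**Figure D1:**
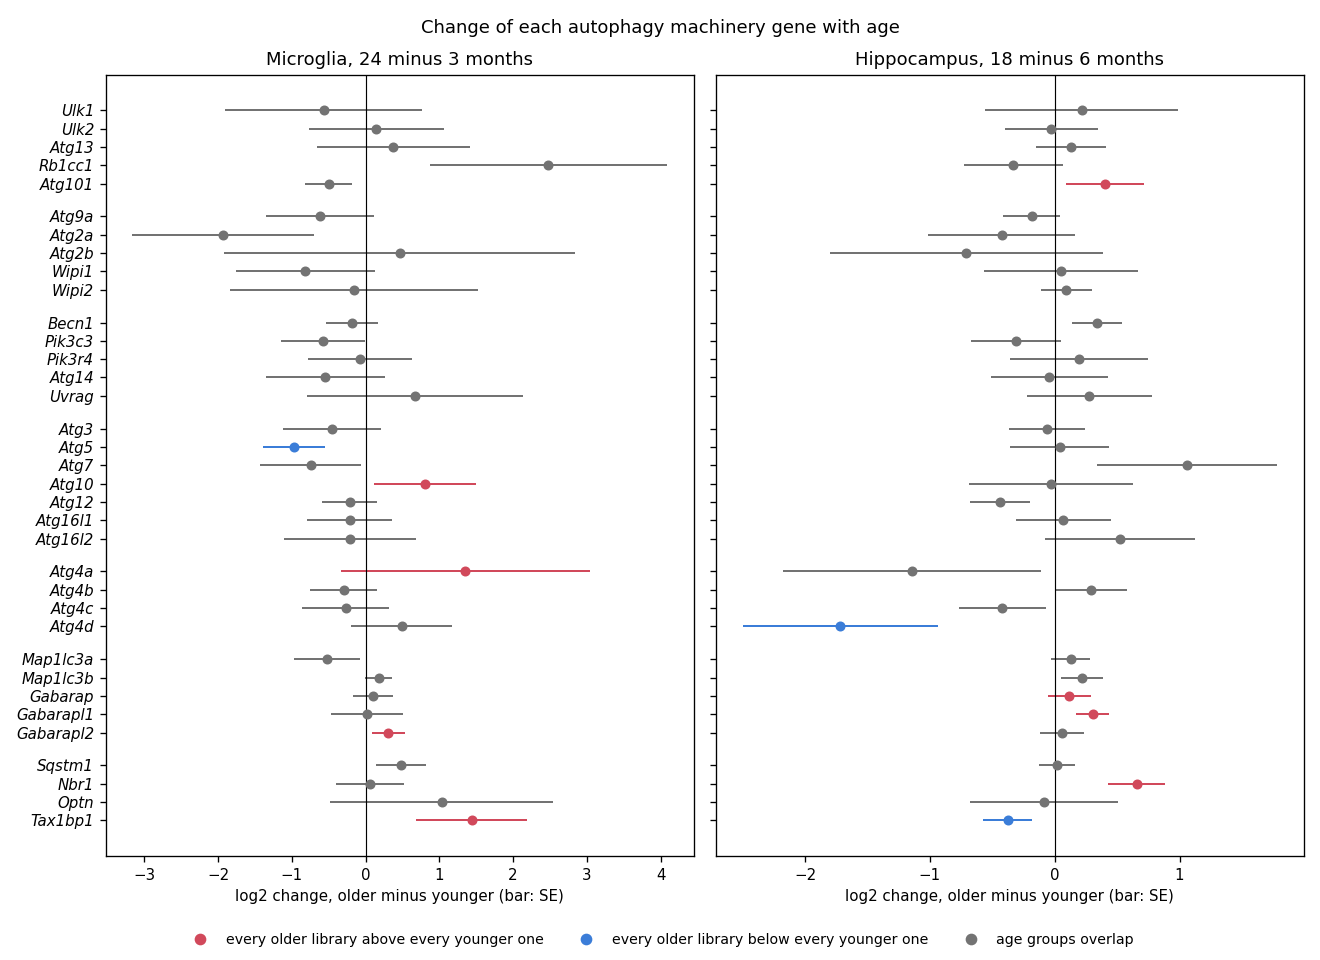
Log2 change with age of each of the 35 members (points) with its standard error (bars), in microglia (24 minus 3 months, left) and hippocampus (18 minus 6 months, right), in order of role. Red and blue mark members whose 3 older libraries all lie above or all below the 3 younger ones, 5 in microglia and 6 in the hippocampus, and most other bars cross 0. The scales of the horizontal axes differ.

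Separation of the age groups, which needs no model, gave a similarly short list. In microglia the 3 older libraries all lay above the 3 younger ones for 4 of 35 members (Atg10, Atg4a, Gabarapl2 and Tax1bp1, 11.4%), against 7.26% of all tested genes, and all below for 1 member (Atg5, 2.86%), against 6.18%. In the hippocampus they lay above for 4 members (Atg101, Gabarap, Gabarapl1 and Nbr1, 11.4%), against 5.03% of all tested genes, and below for 2 (Atg4d and Tax1bp1, 5.71%), against 5.93%. The microglia list depended on the unit. With TPM, which divides by transcript length, or with the authors' normalized counts in place of CPM, the groups of Gabarapl2 overlapped. Atg16l1 was then lower in all 3 older libraries, and the count stayed at 5. The labels do not say whether those normalized counts take account of length. The authors' log2 changes of Atg16l1 and Atg16l2 (-0.95 and 1.41) lay near those of edgeR with a length offset (-0.93 and 1.43). Tax1bp1 was the only member separated in both tissues, and in opposite directions.

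The authors' deposited tables likewise hold no member at an adjusted p below 0.05, where 2.01% of microglia genes and 0.305% of hippocampus genes with an adjusted p passed. In the authors' deposited microglia table, 5 of 35 members had an unadjusted p below 0.05: Rb1cc1, Atg5, Atg10, Atg16l1 and Tax1bp1. Over all genes with a p in that deposited table the share was 7.74%. In the authors' deposited hippocampus table, 4 did: Becn1, Atg4d, Gabarapl1 and Nbr1. The share over all genes there was 6.47%. Their smallest adjusted p among members was 0.294 in microglia (Atg10) and 0.314 in the hippocampus (Nbr1).

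By level per length, Sqstm1, Gabarap and Map1lc3b had the highest means of the members in microglia. Averaged over the 6 libraries, TPM (a level scaled by transcript length) was 381 for Sqstm1, 341 for Gabarap and 279 for Map1lc3b, and the ranges over libraries of these 3 overlapped (230.5 to 613, 234 to 416 and 213 to 359 TPM). Becn1 (162 TPM), Gabarapl2 (151 TPM), Map1lc3a (101 TPM) and Atg101 (95.3 TPM) followed, neighbours in the order that overlapped in the same way. The fifth ATG8 gene, Gabarapl1 (66.9 TPM), lay next to Tax1bp1 (65.5 TPM) and Atg4b (57.4 TPM). Genes of the conjugation step were lower, from 17.6 TPM for Atg12 to 40.1 TPM for Atg5. The lowest means were those of Atg2b (0.462 TPM), Uvrag (3.39 TPM) and Optn (5.57 TPM). The hippocampus table holds no level per length, so its genes are not ranked against each other.

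**Figure D2:**
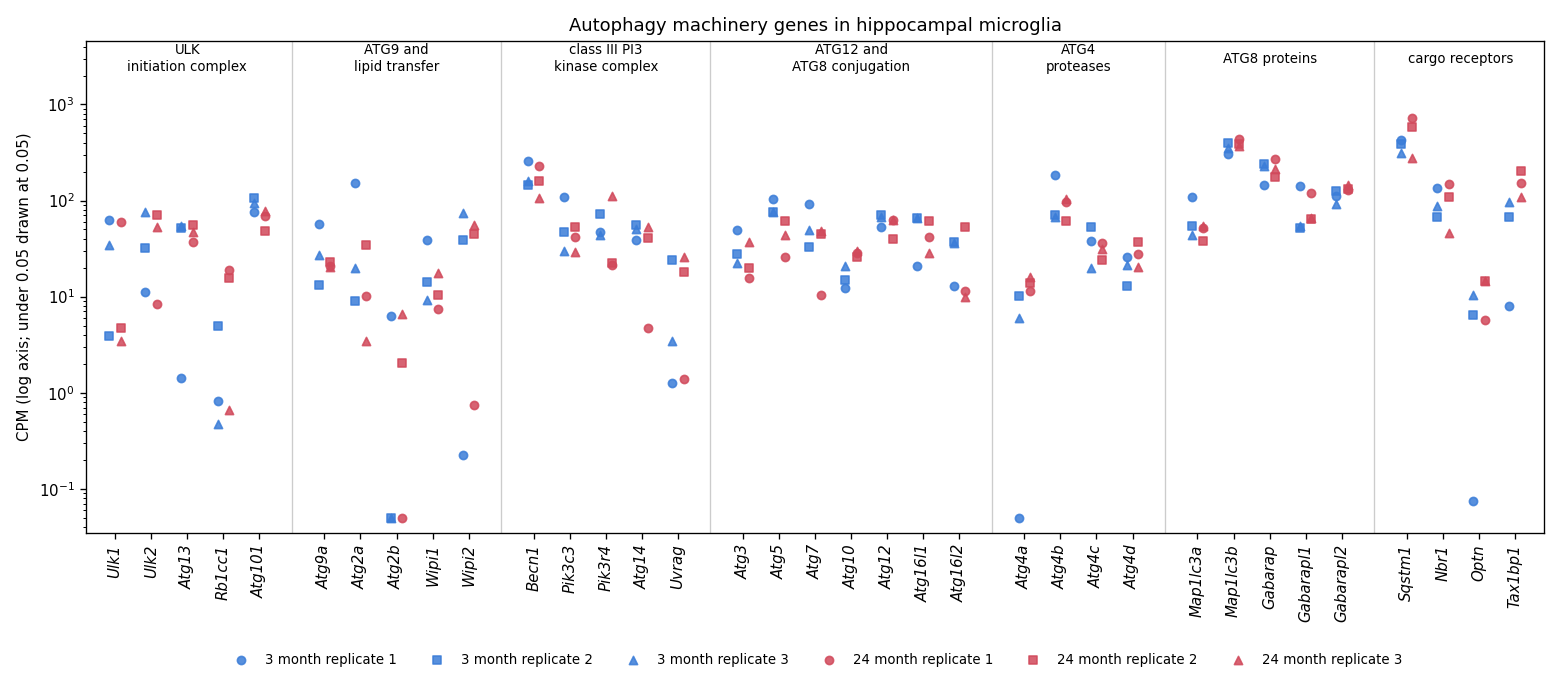
CPM of the 35 members in each of the 6 microglia libraries (log axis, values under 0.05 drawn at 0.05), in order of role, with 3 month libraries in blue and 24 month libraries in red. ATG8 genes, Becn1 and Sqstm1 vary by under a factor of 3 within an age, while Ulk1, Atg13, Rb1cc1, Atg2a, Wipi2, Uvrag, Atg14, Optn and Tax1bp1 spread over more than a factor of 10.

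Genes of the initiation complex did not separate the ages in microglia. Ulk1 encodes the kinase that starts autophagy when nutrients are short. Its CPM was 62.3, 3.87 and 34.4 at 3 months and 59.8, 4.74 and 3.42 at 24 months. Replicate 1 of either age was highest and the groups overlapped entirely (log2 change -0.57, SE 1.34, adjusted p = 0.998). Rb1cc1, the FIP200 scaffold of the complex, had the highest fitted change of all members and a wide error (2.48, SE 1.61, adjusted p = 0.978). Its CPM was 0.821, 4.99 and 0.477 at 3 months and 18.7, 15.5 and 0.665 at 24 months, so 24 month replicate 3 lay among the young libraries. The libraries in which Rb1cc1 was high were those high in immediate early genes, and the part of that in the result was not tested. Atg101, which steadies the subunit ATG13, gave 76.2, 106 and 94.8 CPM at 3 months and 69.0, 47.9 and 78.5 CPM at 24 months. The older values were mostly lower, with 1 overlap (log2 change -0.50, SE 0.32, adjusted p = 0.978). Ulk2, the second kinase, and Atg13 had log2 changes of 0.15 (SE 0.92) and 0.38 (SE 1.04), and Atg13 was at 1.42 CPM in 3 month replicate 1 against 37.2 CPM or more elsewhere.

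In the hippocampus only Atg101 of the same complex separated the ages. Because whole tissue was measured, fewer cells of a type and less RNA per cell cannot be told apart in any of these values. Atg101 gave 66.7, 36.9 and 66.5 normalized counts at 6 months and 71.6, 74.1 and 72.4 at 18 months. The groups did not overlap, but the distance between them rested mainly on 6 month replicate 2 (log2 change 0.40, SE 0.31, adjusted p = 0.917). Ulk1 gave 7.25, 10.7 and 27.7 normalized counts at 6 months and 5.39, 20.9 and 30.2 at 18 months, a full overlap (0.22, SE 0.77). Ulk2, Atg13 and Rb1cc1 had log2 changes of -0.03, 0.13 and -0.33, each smaller than its SE.

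Membrane supply genes were among the least evenly measured members. Atg2a, a channel that moves lipids from the endoplasmic reticulum into the growing membrane, gave 153, 9.10 and 20.02 CPM at 3 months and 10.1, 34.3 and 3.42 CPM at 24 months in microglia. The single value in 3 month replicate 1 stood far above the others, and the fitted change of -1.93 (SE 1.23, adjusted p = 0.975) became 0.12 without that library. Wipi2, which reads the lipid mark of the PI3 kinase and recruits ATG16L1, gave 0.224, 38.5 and 74.2 CPM at 3 months and 0.741, 44.8 and 55.7 CPM at 24 months. It was near 0 in replicate 1 of both ages and between 38.5 and 74.2 CPM in the other 4 libraries (log2 change -0.16, SE 1.69). Atg2b was listed at 0 in 3 of 6 microglia libraries and reached at most 6.65 CPM. Wipi1 and the scramblase gene Atg9a had log2 changes of -0.82 (SE 0.94) and -0.61 (SE 0.73), and both were highest in 3 month replicate 1.

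In the hippocampus Atg2b gave 10.3, 10.7 and 14.5 normalized counts at 6 months and 14.4, 29.7 and 0 at 18 months. Its fitted change of -0.71 (SE 1.09, adjusted p = 0.950) turned to 0.77 when 18 month replicate 3, the library listed at 0, was left out. Atg9a, Atg2a, Wipi1 and Wipi2 had log2 changes between -0.43 and 0.09 with overlapping ages.

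The lipid kinase genes overlapped between ages in microglia, most with wide errors. Becn1 encodes beclin 1, the regulatory subunit that BCL2 can hold back. It gave 257, 145 and 159.9 CPM at 3 months and 228, 160.1 and 106 CPM at 24 months, and the ages overlapped (log2 change -0.19, SE 0.35, adjusted p = 0.998). Pik3c3, the catalytic subunit VPS34, gave a log2 change of -0.58 (SE 0.57), and its membrane anchor Pik3r4 one of -0.07 (SE 0.71). Pik3r4 gave 46.9, 71.6 and 43.6 CPM at 3 months and 21.3, 22.2 and 111 CPM at 24 months, with 24 month replicate 3 above all others, and the change was -1.33 without it. Atg14 and Uvrag encode the alternative subunits that direct the kinase to autophagosomes or to endosomes. Their log2 changes were -0.55 (SE 0.81) and 0.67 (SE 1.46), and that of Uvrag was 2.66 without 3 month replicate 2.

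Hippocampal Becn1 gave 178, 257 and 179.8 normalized counts at 6 months and 219.6, 276 and 277 at 18 months. The older libraries were mostly higher, with 6 month replicate 2 among them (log2 change 0.34, SE 0.20, adjusted p = 0.913). The other 4 subunits lay between -0.31 and 0.28 on the log2 scale.

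Atg5 had the smallest p of any member in microglia. ATG5 is joined to ATG12 and forms, with ATG16L1, the enzyme complex that places ATG8 proteins on the membrane. Its CPM was 104, 76.4 and 75.6 at 3 months (mean 85.4 ± 16.4, SD, n = 3) and 25.7, 61.7 and 43.4 at 24 months (43.6 ± 18.0, n = 3). Every 24 month library lay below every 3 month library, and 24 month replicate 1 was lowest (log2 change -0.97, SE 0.42, adjusted p = 0.898). The change kept its sign in 13 of 13 alternative settings, from -1.31 to -0.53, and its adjusted p stayed at 0.318 or above. In the hippocampus Atg5 overlapped completely, with a log2 change of 0.04 (SE 0.39).

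Other genes of the conjugation step had fitted changes of either sign in microglia. Atg10, the E2-like enzyme that joins ATG12 to ATG5, gave 12.4, 14.7 and 20.8 CPM at 3 months and 28.2, 25.7 and 29.6 CPM at 24 months. All older libraries were higher, by a narrow step between 20.8 and 25.7 CPM (log2 change 0.80, SE 0.69, adjusted p = 0.993). Atg7, the E1-like enzyme that activates ATG12 and the ATG8 proteins, Atg3, the E2-like enzyme for ATG8 proteins, and Atg12 had log2 changes of -0.74 (SE 0.68), -0.45 (SE 0.67) and -0.22 (SE 0.37). All 3 overlapped between ages. Hippocampal Atg7 gave 30.1, 5.77 and 31.7 normalized counts at 6 months and 88.8, 45.7 and 13.9 at 18 months. The ages overlapped, and the log2 change of 1.06 (SE 0.72) became 0.31 without 6 month replicate 2, the lowest library. Hippocampal Atg3, Atg10 and Atg12 had log2 changes of -0.06, -0.03 and -0.44 (SE 0.24), all overlapping.

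For Atg16l1 and its paralogue Atg16l2 the comparison depended on the unit. ATG16L1 sets where ATG8 proteins are attached, on autophagosomes and on single membranes such as phagosomes, while the role of ATG16L2 is less settled. In TPM, Atg16l1 gave 47.1, 38.2 and 34.1 at 3 months and 18.3, 29.5 and 14.2 at 24 months, without overlap. Atg16l2 gave 7.60, 22.2 and 8.29 TPM at 3 months and 34.7, 54.1 and 12.2 TPM at 24 months, overlapping. The share of Atg16l1 in the summed TPM of both was thus 76.6% ± 11.9 at 3 months and 41.2% ± 10.9 at 24 months (SD, n = 3), with no overlap (p = 0.10 by a two-sided exact permutation test, the smallest p that 3 against 3 allows, and 0.60 adjusted over 6 shares). In estimated counts the same share differed by +5.24 percentage points instead of -35.4. TPM divides by the average transcript length that the authors' files give, which was 602 bases for Atg16l1 in 3 month replicate 1 and 2343 to 2935 bases in the other 5 libraries, and for Atg16l2 it ranged from 429 to 6338 bases. With an offset for length in edgeR the log2 changes moved from -0.22 to -0.93 for Atg16l1 and from -0.21 to 1.43 for Atg16l2, with adjusted p of 0.957 and 0.973.

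Shares of the other paralogues differed by less than their spread or overlapped between ages. Ulk1 made up 38.9% ± 35.8 of Ulk1 and Ulk2 TPM at 3 months and 27.8% ± 39.1 at 24 months. Atg4b made up 66.1% ± 14.1 and 59.5% ± 11.7 of the 4 Atg4 genes, and Wipi1 51.1% ± 42.5 and 43.8% ± 28.3 of Wipi1 and Wipi2. Atg2a made up 98.9% ± 1.83 and 90.1% ± 13.8 of Atg2a and Atg2b. Exact permutation p-values of these 4 shares were 0.40 to 0.80, and 0.80 after adjustment.

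The ATG4 proteases both prime ATG8 proteins and free them from the membrane, and Atg4b had the highest level per length of the 4 in microglia (57.4 TPM against 5.71 to 17.8 TPM). In microglia Atg4a gave 0, 10.2 and 5.99 CPM at 3 months and 11.4, 13.9 and 16.0 CPM at 24 months. Every older library was higher, and the value of 0 stood in 3 month replicate 1, where 10 of 35 members were lowest (log2 change 1.35, SE 1.68, adjusted p = 0.998). The pseudogene that shares most of its sequence was listed at 0 in all 6 microglia libraries. Atg4b, the most active of the 4 on LC3, and Atg4c and Atg4d had log2 changes of -0.30 (SE 0.46), -0.27 (SE 0.59) and 0.49 (SE 0.69).

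Atg4d had the lowest fitted change among members in the hippocampus. It gave 14.5, 12.5 and 14.5 normalized counts at 6 months and 5.39, 2.47 and 3.10 at 18 months. The groups were far apart relative to their spread, but at the low end of the table (log2 change -1.72, SE 0.78, adjusted p = 0.909), and the sign held in 11 of 11 alternative settings that kept the gene. Because Atg4d shares sequence with Kri1, its level is uncertain. Atg4a was listed at 0 in 3 of 6 hippocampus libraries. Atg4b and Atg4c had log2 changes of 0.29 (SE 0.29) and -0.42 (SE 0.35).

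**Figure D3:**
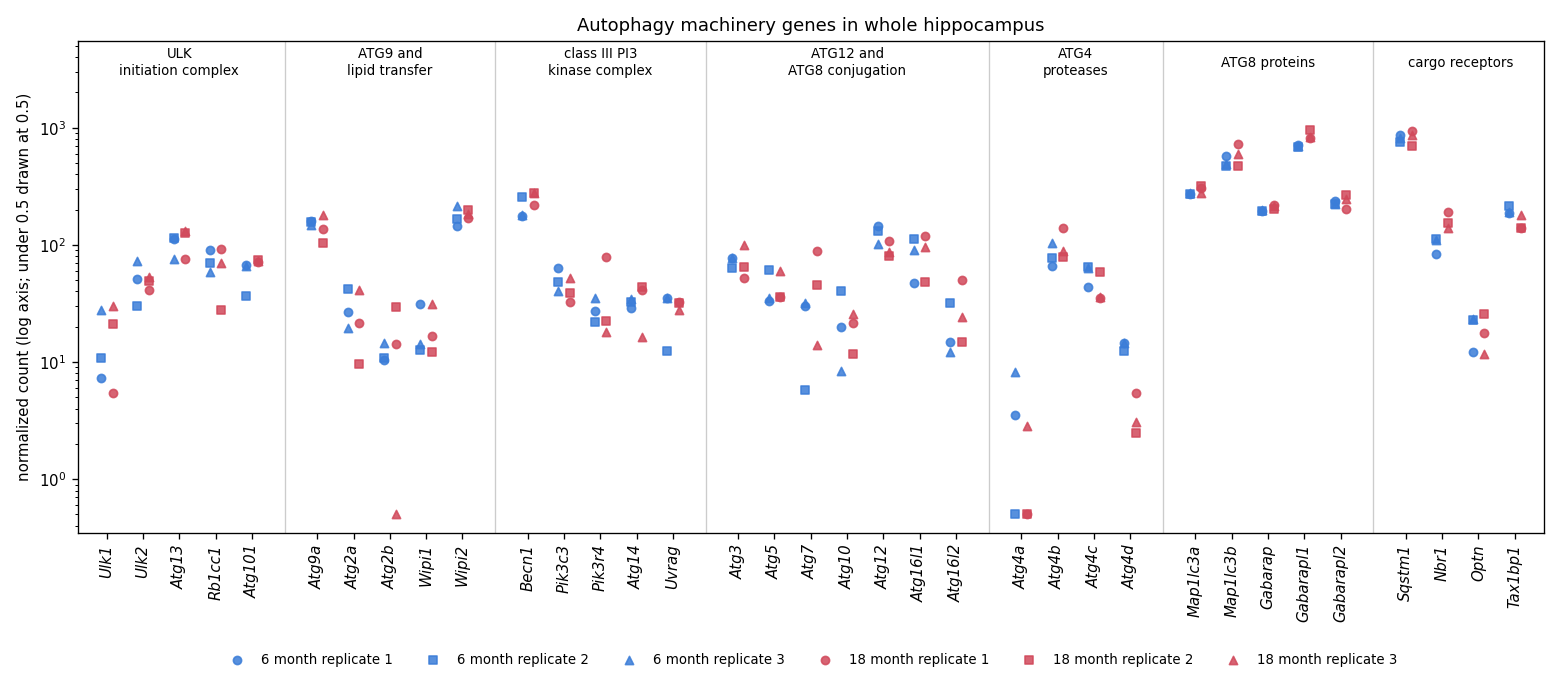
Normalized counts of the 35 members in each of the 6 hippocampus libraries (log axis, values under 0.5 drawn at 0.5), in order of role, with 6 month libraries in blue and 18 month libraries in red. Nbr1 and Gabarapl1 are higher and Atg4d and Tax1bp1 lower in all 3 older libraries, and levels depend on transcript length, so genes are not compared with each other.

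Of the ATG8 genes, Map1lc3b, Gabarapl2 and Gabarap had the smallest standard errors of all members in microglia. Map1lc3b, the standard marker of autophagosomes, gave 303, 397 and 354 CPM at 3 months and 434, 387 and 374 CPM at 24 months. The ages overlapped, and the log2 change of 0.18 (SE 0.18, adjusted p = 0.993) had the smallest SE of all members. Gabarapl2, also called GATE-16, gave 110.2, 125 and 92.5 CPM at 3 months and 130.0, 132 and 144 CPM at 24 months. All older libraries were higher, by a small step (log2 change 0.31, SE 0.23, adjusted p = 0.993), and in TPM the groups overlapped.

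The remaining ATG8 genes overlapped between ages in microglia. Gabarap gave 146, 237 and 226 CPM at 3 months and 270.5, 174 and 211 CPM at 24 months (log2 change 0.11, SE 0.27). Gabarapl1 gave 142, 51.7 and 54.2 CPM at 3 months and 121, 63.6 and 66.4 CPM at 24 months (0.02, SE 0.49). Both had replicate 1 of an age apart from the other libraries of that age. Map1lc3a gave 109, 54.7 and 44.1 CPM at 3 months and 51.9, 37.9 and 54.7 CPM at 24 months, where 3 month replicate 1 alone was high (-0.52, SE 0.45). In the summed ATG8 TPM, Gabarap made up 36.2% on average, Map1lc3b 29.6%, Gabarapl2 16.2%, Map1lc3a 10.9% and Gabarapl1 7.11%. The LC3 branch (Map1lc3a and Map1lc3b) held 40.8% ± 2.20 at 3 months and 40.2% ± 2.40 at 24 months (SD, n = 3, exact permutation p = 0.80, and 0.80 adjusted).

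**Figure D4:**
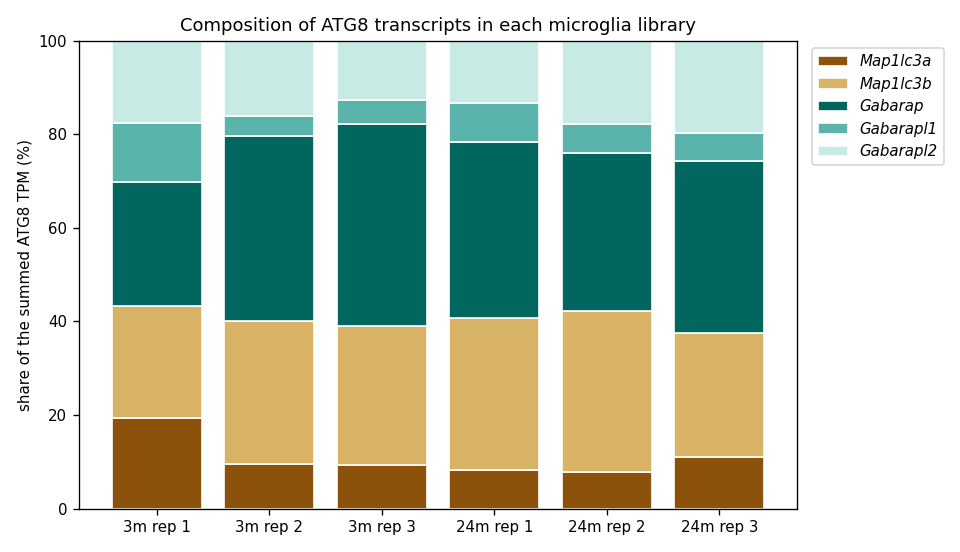
Share of each of the 5 ATG8 genes in their summed TPM, 1 stacked bar per microglia library. The 2 LC3 genes at the base make up 37.6% to 43.3% in all 6 libraries, while 3 month replicate 1 holds more Map1lc3a (19.3%) and Gabarapl1 (12.6%) than any other library.

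In the hippocampus every ATG8 gene had a fitted change above 0, none past the threshold, and Gabarapl2 lay below 0 in 1 of 12 alternative settings. Gabarapl1 gave 718, 689.5 and 695 normalized counts at 6 months (mean 701 ± 15.1, SD, n = 3) and 821, 949.6 and 831 at 18 months (867 ± 71.5, n = 3). Every older library was higher, by more than the spread within either age (log2 change 0.30, SE 0.13, unadjusted p = 0.0338 by limma, adjusted p = 0.8902). Gabarap gave 194, 196 and 197 normalized counts at 6 months and 220.4, 203 and 213 at 18 months, a small step without overlap (0.12, SE 0.17). Map1lc3b gave 573, 468 and 486 at 6 months and 721, 474 and 599 at 18 months, overlapping (0.22, SE 0.17). Map1lc3a gave 273, 271 and 277 at 6 months and 307, 317 and 275 at 18 months (0.13, SE 0.16). For Gabarapl2 the values were 236, 223 and 223 at 6 months and 202, 266 and 246 at 18 months, where the older libraries lay on both sides of the younger ones (0.06, SE 0.18).

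Markers of cell types differed between the same libraries. The summed level of the 10 neuron markers was 14112 to 15712 normalized counts at 6 months and 16230.5 to 16391 at 18 months. That of the 10 microglia markers was 509 to 592 and 632 to 709.6. Neither sum overlapped, and no marker of either list was at 0. Camk2a held a large part of the neuron sum, with 7986, 6904 and 7519 normalized counts at 6 months and 9209, 8897 and 8408 at 18 months. Snap25 overlapped between ages (3815, 3520 and 3404 against 3382, 3013 and 3777), so the neuron sum does not stand for each of its markers. The part of the neuron and microglia markers in the values of Gabarapl1, Gabarap and Nbr1 was not tested.

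Cargo receptors varied between libraries of the same age in microglia. SQSTM1 binds ubiquitin and LC3 and is itself degraded by autophagy, and its gene lies on chromosome 11 from 50199366 to 50210827, minus strand (GRCm38). In microglia Sqstm1 gave 422, 391 and 314 CPM at 3 months (mean 376 ± 55.8, SD, n = 3) and 716, 585 and 275 CPM at 24 months (525 ± 226, n = 3). Replicates 1 and 2 at 24 months stood above every young library, and replicate 3 stood below every young library (log2 change 0.48, SE 0.34, adjusted p = 0.993). When 24 month replicate 3 was set alone against the 3 young libraries the log2 change was -0.45, and when it was the library left out it was 0.82 (adjusted p = 0.279).

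The same pair of 24 month libraries carried the early response genes. Fos was at 4190 and 4261 CPM in 24 month replicates 1 and 2, at 48.5 CPM in replicate 3 and at 2.99 to 28.2 CPM at 3 months. Sqstm1 and the immediate early list were thus both higher in 24 month replicates 1 and 2 than in replicate 3, though not in the same order of those 2 libraries, and the part of that list, or of the neutrophil transcripts in replicate 1, in its level was not tested. The average length of Sqstm1 transcripts was 1956, 1886 and 1748 bases at 3 months and 1537, 1317 and 1679 bases at 24 months, shorter in all older libraries. In TPM, a level per length, Sqstm1 was 293, 281 and 264 at 3 months and 606, 613 and 230.5 at 24 months, so the gap widened for the same pair of libraries and replicate 3 stayed lowest. The partner gene Mrnip, whose transcripts share sequence with Sqstm1, was at 10.7 CPM or lower in every library.

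**Figure D5:**
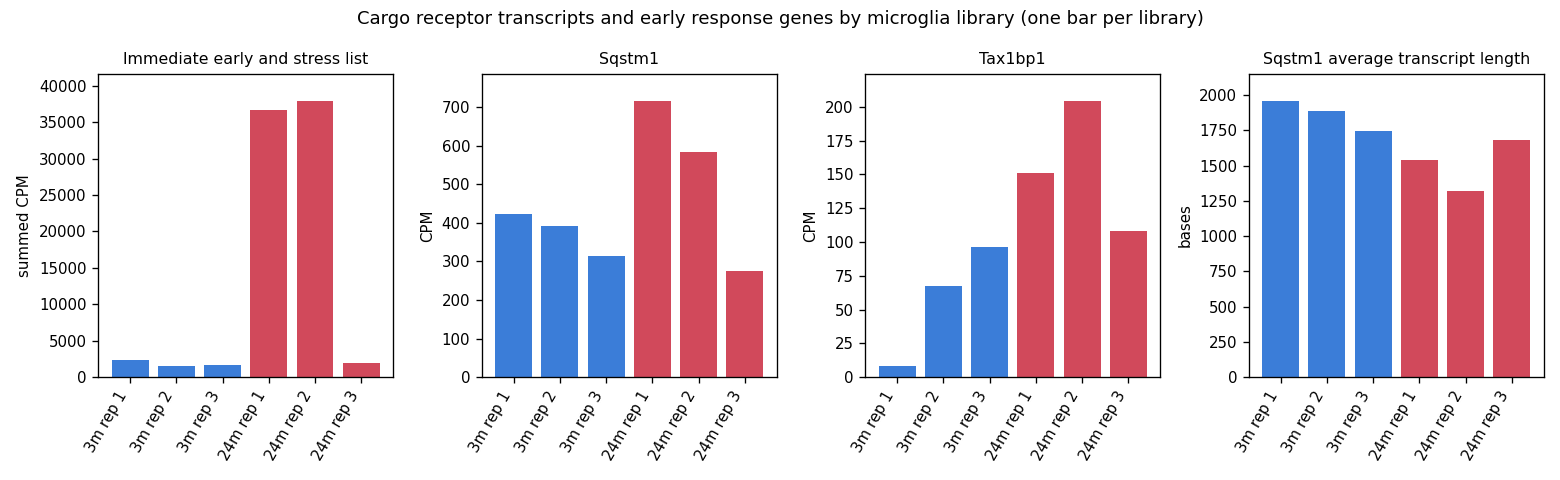
From left to right, summed CPM of 20 immediate early and dissociation stress genes, CPM of Sqstm1, CPM of Tax1bp1 and average Sqstm1 transcript length in bases, 1 bar per microglia library (blue 3 months, red 24 months). Sqstm1 is high in the same 24 month libraries as the early response genes and low in 24 month replicate 3, and Tax1bp1 is highest in those same 24 month libraries and lowest in 3 month replicate 1.

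Tax1bp1 separated the ages in both tissues. TAX1BP1 is a receptor for ubiquitinated cargo that also damps inflammatory signalling, and its gene lies on chromosome 6 from 52713729 to 52766780, plus strand (GRCm38). In microglia it gave 8.06, 67.2 and 96.0 CPM at 3 months and 151, 204 and 108 CPM at 24 months. Every older library was higher, with 3 month replicate 1 far below the rest and 24 month replicate 3 just above the young libraries (log2 change 1.44, SE 0.76, adjusted p = 0.967). The log2 change over 13 alternative settings ranged from 0.92 to 2.04. Among the 24 month libraries Tax1bp1 had the order of the immediate early list, highest in replicate 2 and lowest in replicate 3, and the part of that list in its level was not tested. In the hippocampus Tax1bp1 gave 188, 213 and 192 normalized counts at 6 months and 139, 139 and 179.8 at 18 months. Every older library was lower there, with 18 month replicate 3 close to the younger ones (log2 change -0.38, SE 0.19, adjusted p = 0.909, from -0.50 to -0.31 in 12 of 12 alternative settings).

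Nbr1 was the member with the smallest p in the hippocampus. NBR1 is a large receptor that works with SQSTM1 in gathering ubiquitinated proteins. It gave 82.7, 112 and 111 normalized counts at 6 months (mean 102 ± 16.4, SD, n = 3) and 189, 153 and 140.4 at 18 months (161 ± 25.2, n = 3). Every older library was higher (log2 change 0.66, SE 0.23, unadjusted p = 0.0117 by limma, adjusted p = 0.877), and the change stayed between 0.52 and 0.75 in 12 of 12 alternative settings. In microglia Nbr1 gave 134, 68.0 and 87.6 CPM at 3 months and 148, 109 and 45.6 CPM at 24 months, a full overlap (0.06, SE 0.47) whose sign changed in 8 of 13 alternative settings. Among its 24 month libraries replicate 3 was lowest, as for Sqstm1.

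Hippocampal Sqstm1 overlapped between ages. It gave 859.5, 759 and 824 normalized counts at 6 months and 933, 695 and 861 at 18 months (log2 change 0.02, SE 0.14, adjusted p = 0.994). Optn encodes optineurin, a receptor for damaged mitochondria and bacteria. In microglia it gave 0.0746, 6.48 and 10.5 CPM at 3 months and 5.72, 14.6 and 14.5 CPM at 24 months, overlapping, with replicate 1 of either age lowest (1.03, SE 1.52). In the hippocampus its log2 change was -0.09 (SE 0.59). In microglia all 4 receptors had a fitted log2 change above 0, with a median of 0.76, although Sqstm1 turned negative in 1 and Nbr1 in 8 of 13 alternative settings. In the hippocampus 2 lay above 0 and 2 below.

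Genes around the core machinery gave the same count of calls. Of 61 further genes of nutrient sensing, autophagosome formation, fusion with the lysosome and selective autophagy, 59 were tested in microglia and 61 in the hippocampus, and edgeR and limma called 0 in either. At an unadjusted p below 0.05 they counted 1 of 59 and 2 of 61, against 5.53% and 5.37% of all tested genes. In microglia every older library lay above every younger one for 0 of 59 and below for 3, against 7.26% and 6.18% of all tested genes. In the hippocampus this held for 2 of 61 and for 3, against 5.03% and 5.93%. DESeq2 called 1 in microglia, Wdr45 (log2 change -0.86, adjusted p = 0.0149), which reads the same lipid mark as the WIPI genes. The authors' deposited table gave Wdr45 the same log2 change with an adjusted p of 0.117. DESeq2 called 192 genes of the whole table higher and 57 lower, 2.04% of those with an adjusted p.

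Among these further genes in microglia, Vamp8 had the smallest p. It encodes the lysosomal SNARE that joins autophagosome and lysosome. It gave 376, 463 and 406 CPM at 3 months and 237, 279.7 and 354 CPM at 24 months, lower in all older libraries (log2 change -0.52, SE 0.21, adjusted p = 0.888). Wdr45 gave 51.4, 62.6 and 49.0 CPM at 3 months and 27.2, 30.96 and 32.3 CPM at 24 months, a clear separation (edgeR log2 change -0.85, SE 0.43, adjusted p = 0.962). Rragc, a Rag GTPase that brings mTORC1 to the lysosome, gave 49.7, 49.0 and 31.2 CPM at 3 months and 24.5, 15.2 and 22.1 CPM at 24 months, also without overlap (-1.07, SE 0.56). The other 3 of the 6 smallest p-values belonged to genes whose ages overlapped. Fundc1, a mitophagy receptor, gave 144, 70.6 and 88.5 CPM at 3 months and 50.5, 57.9 and 74.0 CPM at 24 months (-0.73, SE 0.37). Sesn1, a sestrin that restrains mTORC1, gave 421, 374 and 239 CPM at 3 months and 153, 292 and 245 CPM at 24 months (-0.58, SE 0.31). Trp53inp2, a protein that leaves the nucleus to take part in autophagosome formation, gave 0.149, 3.12 and 14.2 CPM at 3 months and 96.0, 42.1 and 5.41 CPM at 24 months, high in the same pair of libraries as Sqstm1 (3.03, SE 1.56).

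In the hippocampus Prkaa1, a catalytic subunit of the energy sensor AMPK, had the smallest p of the further genes. It gave 42.5, 37.6 and 45.4 normalized counts at 6 months and 0, 0 and 17.0 at 18 months. All older libraries were lower, and 2 of 3 were listed at 0 (log2 change -4.03 on the log2(value + 1) scale, SE 1.03, adjusted p = 0.755). Tsc2, a brake on mTORC1, gave 1.55, 0 and 0 at 6 months and 0, 34.6 and 40.3 at 18 months, so a value at 0 stood in both ages (3.06, SE 1.28, adjusted p = 0.8902). Wdr45 gave 69.8, 57.0 and 56.9 at 6 months and 114, 83.2 and 80.3 at 18 months, higher in all older libraries (0.58, SE 0.27, adjusted p = 0.909). Lysosomal and AMPK genes followed. Lamp1, a lysosomal membrane protein, gave 369.7, 186 and 218 at 6 months and 278, 333 and 411 at 18 months, overlapping (0.45, SE 0.24). Vps41, a subunit of the HOPS tether, gave 232, 313 and 282 at 6 months and 167, 166 and 305 at 18 months, also overlapping (-0.42, SE 0.24). Prkag1, a regulatory subunit of AMPK, gave 53.6, 69.3 and 76.2 at 6 months and 86.1, 95.9 and 92.5 at 18 months, higher in all older libraries (0.47, SE 0.26).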

How the data were processed

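The members and the lists of further genes and markers were chosen with earlier results of these data known. Per the labels' protocols, 5 ng of Trizol RNA was reverse transcribed from oligo-dT with template switching, amplified for 12 cycles and tagmented. No molecular identifiers are named. Tools listed in the submitters' processing notes are kallisto, DESeq and DESeq2. Those notes also list GRCm39 and mm10 and do not tie either build to a file. For microglia the authors deposited estimated counts, TPM and average transcript lengths (a score, in bases) per gene, per the file headers. For each tissue the authors deposited a comparison table with normalized counts (a signal scaled between samples), log2 fold changes, standard errors, a test score, p-values and adjusted p-values, per the file headers. Its hippocampus log2 values are 6 over 18 months and were turned here.

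Estimated counts were rounded and tested across all genes with edgeR 4.0.16 (quasi-likelihood, TMM, filterByExpr) in R 4.3.3, which kept 10663 genes. The SE given with edgeR was derived from its test, as the size of the log2 change divided by the square root of the F statistic. With limma it came from the fit. The hippocampus table has no counts, so log2(normalized count + 1) of genes with at least 1 in at least 3 samples was tested across all genes with limma 3.58.1 with a mean trend. P-values were two-sided and adjusted by Benjamini-Hochberg over every tested gene, with a threshold of 0.05. DESeq2 1.42.0 was an alternative, as were other scalings, filters, pseudocounts, a length offset, a replicate block and leaving out libraries. The unnamed entry, 0.0546% to 0.0771% of microglia counts, was left out, and 0 sample columns stayed unmatched. Scripts were tested on simulated data. Sequence shared between genes was counted in GENCODE M21 (GRCm38).

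Values in every sample are given for the 5 ATG8 genes, Ulk1, Becn1 and Sqstm1, for members whose ages do not overlap, for the 4 smallest p-values per tissue, for members near 0 in 1 or 2 libraries, and for further genes among the 6 smallest p-values. Rb1cc1, Atg16l1, Atg16l2, microglial Nbr1 and Pik3r4 and hippocampal Atg7 were shown after their values were seen.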

Additional observations from a re-analysis of the deposited data

Results flagged for a closer look

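Genes were singled out here when every older library lay on one side of every younger library in microglia and on the other side in the hippocampus. Of the 35 members this held for Tax1bp1, with a log2 change of 1.44 in microglia and -0.38 in the hippocampus. Of the 61 further autophagy genes it held for Wdr45, with -0.85 in microglia and 0.58 in the hippocampus. In microglia 7.26% of all tested genes had every older library above every younger one and 6.18% below, and in the hippocampus 5.03% and 5.93%. The share of all genes that met the criterion across both tissues is not given here. The difference between the tissues was not tested. The ages compared also differ, 3 and 24 months in microglia and 6 and 18 months in the hippocampus, so tissue and age span cannot be told apart.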

How the results depend on the processing

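Calls of members were 0 in 13 of 13 alternative settings in microglia and in 12 of 12 in the hippocampus, including the replicate block, which called 0 members in either tissue. Same-numbered libraries did not deviate together, with correlations of -0.03 to 0.06 in microglia and 0.009 to 0.014 in the hippocampus. The numbers were thus not read as pairs. By their levels over the 35 members, though, 3 month replicate 1 correlated most with 24 month replicate 1 (0.66, against 0.47 to 0.61 with other microglia libraries). Over all tested genes that correlation was its lowest (0.65, against 0.70 to 0.75). Leaving out 1 library gave 0 called members each time, although without 24 month replicate 3 the whole microglia table had 50 higher and 5 lower calls. With DESeq2 1 further gene was called (Wdr45). Of single log2 changes, 1 turned its sign with both values beyond their own SE, Sqstm1 in microglia at -0.45 with 24 month replicate 3 alone in its arm, and 47 others moved by more than their SE. The cause was not tested. In estimated counts in place of TPM the Atg16l1 share differed by 5.24 and the Atg2a share by -22.6 percentage points, since TPM divides by a transcript length that varied between libraries. Using TPM or the authors' normalized counts to judge overlap was added after seeing the data. For 14 of 35 members that length varied over 1.5 times. Leaving out 3 month replicate 1 changed the sign of 10 members. The median error was larger for members under 100 CPM, and the part of depth in that was not tested.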
